A study of Mus musculus with 12 samples.

Results

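Forced expression of the forkhead transcription factor FOXP1 in cultured fat cells is described here by comparing 3 RNA-seq libraries of 3T3-L1 adipocytes that carry a FOXP1 expression construct with 3 libraries of the same cells that carry the empty vector. These are 6 of the 12 libraries of the study. The other 6 hold a Foxp1 short hairpin RNA or a scrambled hairpin. They enter the expression filter and the estimate of spread behind every test. Their levels are given only where the same genes are set beside their knockdown values. Members are all genes with at least 1 RPKM (read counts scaled for gene length and library size) in 3 or more of the 12 libraries, which left 11245 of 28948 listed genes, 10170 of them protein coding. 3T3-L1 is an established line of Swiss mouse embryo fibroblasts that turns into fat-storing cells in culture. All groups went through 1 differentiation protocol, in which the inducing medium held insulin at 5 µg/ml, the PPARγ agonist troglitazone at 10 µM, the glucocorticoid dexamethasone at 1 µM and the phosphodiesterase inhibitor isobutyl methylxanthine at 0.5 mM, then insulin alone at the same dose from day 4 and growth medium from day 6. The overexpression is labelled "constituent", which is read here as constitutive. The promoter, the vector and the day of harvest are not given in the sources used here.

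FOXP1 belongs to the FOXP branch of the forkhead family, proteins that bind DNA through a winged-helix domain and that act mostly as repressors. In fat it is known as a factor that opposes the heat-producing program of brown and beige adipocytes. Adipocytes store triglyceride, release fatty acids and glycerol on hormonal demand, and secrete hormones and plasma proteins. The enzymes, receptors, secreted proteins and structural genes around those functions are the subject of what follows.

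Between 35252019 and 38450003 reads per library fell in genes. A single read of a 1-kb gene corresponds to 0.0260 to 0.0284 RPKM. Between libraries of a group, log2(RPKM + 1) over tested genes correlated at r = 0.994 to 0.998. Overexpression replicate 3 stood apart: 13.1% of its reads came from the mitochondrial genome, against 8.61% to 9.99% in the other 5 libraries compared, and it was the lowest of the 3 overexpression libraries in 6224 of 11245 genes. Of 12 fat cell markers 11 passed the filter, and the exception, Lep, averaged 0.263 RPKM with the empty vector and 0.370 RPKM with overexpression. Of the 11, 1 was called higher and 9 lower at a limma adjusted p under 0.05, with a median log2 ratio of -0.54, where 31% and 20.3% of all tested genes were called higher and lower and their median was 0.05. Their summed level was 9448 to 9664 RPKM with the empty vector and 3849 to 4144 RPKM with overexpression, a fall carried mostly by Cidec, Adipoq, Cfd and Lpl. Pparg and Fabp4 fell by 1.24-fold and 1.19-fold, Plin4 did not pass the test (adjusted p = 0.603), and Slc2a4, the insulin-responsive glucose carrier, rose from 65.2 ± 1.06 to 82.97 ± 2.43 RPKM. Of the 5 preadipocyte or fibroblast markers tested, Dlk1, Thy1 and Pdgfrb rose, from 37.7 ± 4.24 to 55.7 ± 0.128 RPKM, from 13.4 ± 0.822 to 19.8 ± 1.56 RPKM and from 7.59 ± 0.421 to 9.99 ± 0.533 RPKM, and Ly6a and Pdgfra fell, from 31.9 ± 0.227 to 14.9 ± 1.42 RPKM and from 19.5 ± 0.917 to 15.6 ± 0.843 RPKM. The bone or cartilage markers summed to 6.66 to 7.37 RPKM with the empty vector and 10.1 to 11.7 RPKM with overexpression. Most of that rise was Sox9, from a mean of 4.11 to 8.78 RPKM. Runx2 rose from 0.888 to 1.07 RPKM, a call lost under TPM scaling, and Alpl fell from 1.77 to 1.10 RPKM. Bglap, Sp7 and Col2a1 were at most 0.134 RPKM and averaged lower with overexpression, and Acan was at 0. Of 9 macrophage markers listed in the files, Ptprc, a marker of all leukocytes, and Itgam and Adgre1 were at or near 0 (at most 0.00839 RPKM) in all 6 libraries. The macrophage markers Cd68 and Cd14 were present, going from 3.59 ± 0.676 to 3.41 ± 0.387 RPKM (adjusted p = 0.749) and from 2.72 ± 0.422 to 1.35 ± 0.218 RPKM (adjusted p = 1.61e-04), and Csf1r averaged 0.0478 and 0.124 RPKM. The 6 endothelial markers summed to 0.229 to 0.284 RPKM with the empty vector and 0.429 to 0.588 RPKM with overexpression. In bulk RNA, fewer cells of a type and less RNA per cell cannot be told apart. The labels do not say whether replicates are separate cultures, so the p-values measure only the spread between these libraries.

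Foxp1 itself was read at 1.83, 1.76 and 1.82 RPKM with the empty vector and 5.78, 7.16 and 6.75 RPKM with overexpression. The 3 overexpression libraries were higher than all 3 empty-vector libraries, 3.64-fold on average (log2 difference 1.43, SE 0.058, limma adjusted p = 1.19e-09). Its close relative Foxp4 had means of 14.4 ± 0.877 to 15.2 ± 1.01 RPKM and did not pass the test (adjusted p = 0.233). Exons of Foxp1 share positions with the predicted genes Gm20696 and Gm49348. Of the 505 genes picked by the rule for named genes, 144 share exon positions with another gene. This is stated below only for some of them, and also applies to Ccna2, Mt2, Cox6a2 and Mmp11.

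Overexpression was followed by 3490 genes called higher and 2285 called lower at a limma adjusted p under 0.05, or 31% and 20.3% of those tested. Under TPM scaling, which brings the length-corrected levels of each library to 1 common total, the split was 2419 higher and 2565 lower, so the balance between directions depended on the scale. Where a gene is given by its means, they are mean ± SD over the 3 empty-vector libraries and then over the 3 overexpression libraries. A gene is called strongly changed below where it passed the test, its means differed at least 2-fold and the 3 libraries of one group all lay beyond the 3 of the other. By that rule 345 genes (3.07%) were strongly higher and 279 (2.48%) strongly lower. The median of the strong rises was 2.61-fold and that of the strong falls 2.55-fold. Changes of at least 5-fold numbered 46 up and 41 down, and changes of at least 10-fold 17 up and 5 down. The strong rises went from a median of 1.05 RPKM with the empty vector to 3.44 RPKM with overexpression, and the strong falls from 4.62 RPKM to 1.40 RPKM. Read by the lower and the higher group of each set, the medians were 1.05 and 1.40 RPKM and 3.44 and 4.62 RPKM. Among the 444 genes averaging 100 RPKM or more, 2.03% were strongly higher and 4.05% strongly lower. At the threshold, Pdk1 lay just outside with a ratio of 1.998 and Mid2 just inside with 2.001. Among falls, Nampt lay just outside with a ratio of 0.5002.

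**Figure D1:**
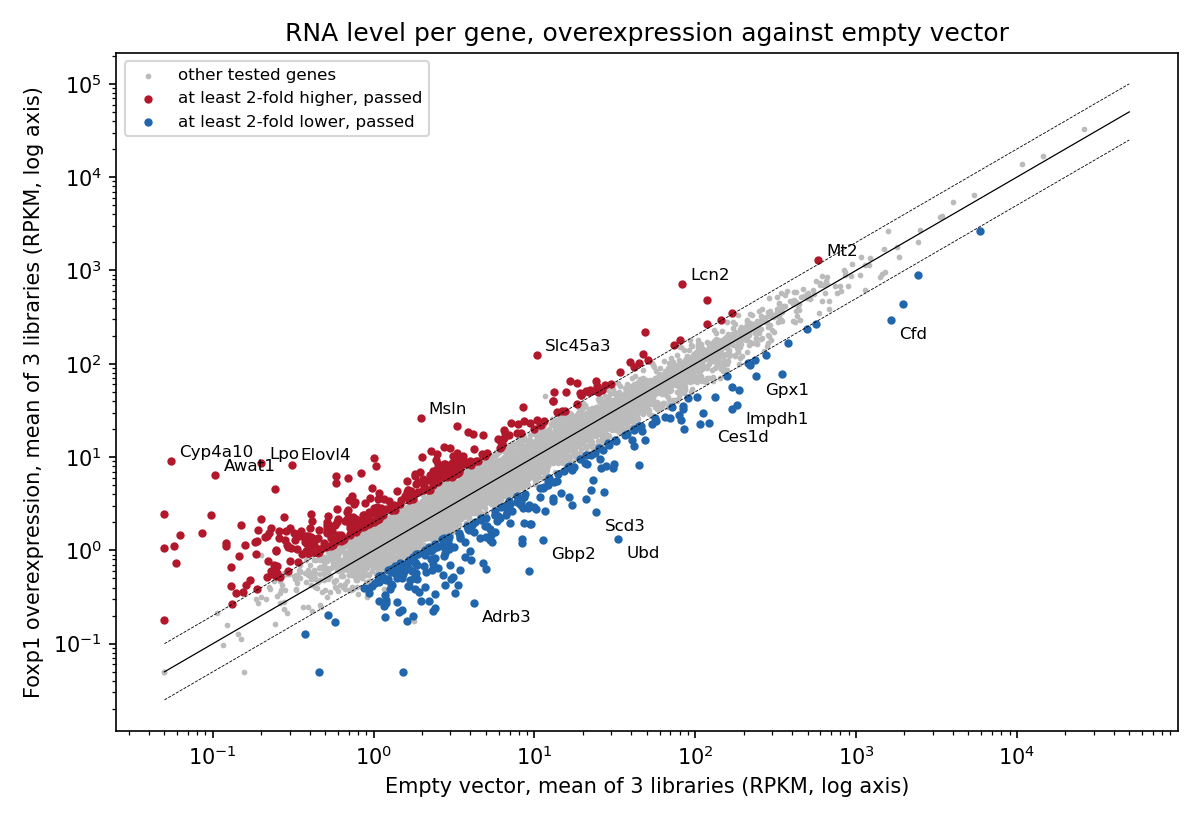
Mean RNA level per gene with the empty vector (x axis, RPKM, log scale) against overexpression (y axis, RPKM, log scale), each point 1 of 11245 tested genes and values under 0.05 RPKM drawn at 0.05; the solid line marks equal levels and the dashed lines 2-fold differences. The 345 strongly raised genes lie mainly at the low end of the x axis, which in part follows from choosing them for a lower empty-vector level. Both they and the 279 strongly lowered genes extend to abundant transcripts, such as Lcn2 and Cfd.

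From under 0.5 RPKM in every empty-vector library, 43 of the 11245 tested genes passed to at least 1 RPKM in every overexpression library. The reverse, from at least 1 RPKM to under 0.5 RPKM, was seen in 25 genes. Either kind can meet the filter of 1 RPKM through the libraries of the higher group alone. Lipid enzymes were among the 43. Cyp4a10, a cytochrome P450 that hydroxylates the end carbon of fatty acids, was at 0.0375, 0.074 and 0.0538 RPKM with the empty vector and 9.03, 8.39 and 9.48 RPKM with overexpression, which is 3, 6 and 4 reads against 703, 650 and 736. The groups were 163-fold apart on the ratio of means, a figure set by the few control reads. Awat1, an acyltransferase that makes wax esters from long-chain alcohols, read 0.114, 0.0748 and 0.122 RPKM with the empty vector and 6.36, 6.13 and 6.63 RPKM with overexpression. All of the overexpression libraries were far above the controls, whose 3 values rest on 4 to 6 reads each (log2 difference 2.74, SE 0.045, adjusted p = 5.00e-13). Elovl4 extends fatty acids to very long chains, and stood at 0.34, 0.318 and 0.272 RPKM with the empty vector and 8.32, 8.21 and 8.41 RPKM with overexpression, a rise of 26.8-fold with no overlap.

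Lpo encodes lactoperoxidase, a heme enzyme of secretions. It was present at 0.202, 0.207 and 0.19 RPKM with the empty vector and 8.51, 8.84 and 8.32 RPKM with overexpression, 42.8-fold higher. Further rises from a very low level concerned structural or muscle-type proteins. Pkp1, a desmosome plaque protein, went from 0.0395 ± 0.0167 to 2.45 ± 0.17 RPKM. Hspb7, a small heat shock protein known from heart and muscle, went from 0.0968 ± 0.0233 to 2.42 ± 0.182 RPKM. In both, all overexpression libraries exceeded 2 RPKM and all controls were under 0.2 RPKM. Tnnc2, a fast-muscle troponin, rose from 0.244 ± 0.06 to 4.58 ± 1.14 RPKM, but its exons share positions with Ube2c, and since strand use in the counting is not given, the reads of the pair may not be separable.

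Among genes that already had a clear level, large rises included a membrane carrier and secreted defense proteins. Slc45a3, of the solute carrier family, was at 10.1, 9.99 and 10.9 RPKM with the empty vector and 126, 122 and 122.5 RPKM with overexpression. The overexpression values were 11.95-fold higher (log2 difference 3.46, SE 0.0457, adjusted p = 1.93e-13). Its exons share positions with the predicted gene Gm29103. Lcn2, lipocalin 2, which binds bacterial iron carriers, was at 85.1, 83.5 and 79.3 RPKM with the empty vector and 681, 686 and 759.8 RPKM with overexpression. The controls and the overexpression libraries were 8.58-fold apart. Efnb2, the ephrin-B2 ligand of Eph receptors, went from 0.581 ± 0.056 to 6.27 ± 0.335 RPKM. Cyp4b1, a P450 and the nearest tested neighbour of Cyp4a10 on chromosome 4, went from 1.002 ± 0.0797 to 9.81 ± 0.656 RPKM, and Ip6k3, an inositol hexakisphosphate kinase, from 0.58 ± 0.0959 to 5.29 ± 0.17 RPKM.

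**Figure D2:**
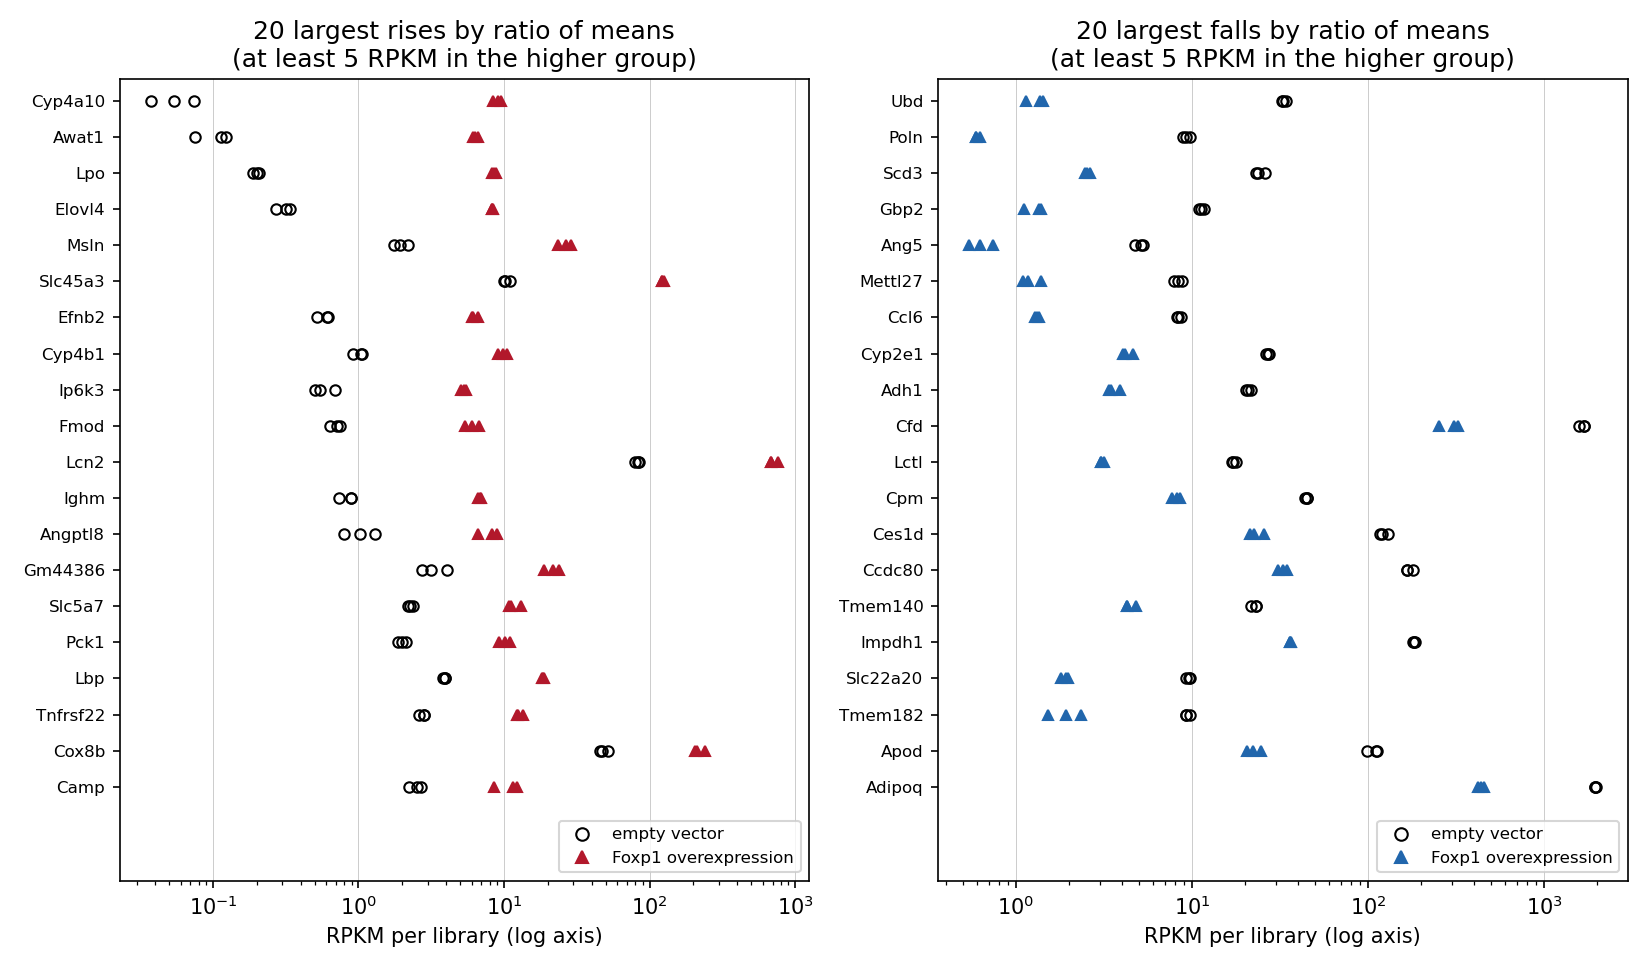
RPKM in each library (x axis, log scale) for the 20 largest rises (left) and 20 largest falls (right) by ratio of group means among genes that passed the test, did not overlap and averaged at least 5 RPKM in the higher group; circles are the 3 empty-vector libraries, triangles the 3 overexpression libraries. The 2 groups are separate in every gene drawn, with Cyp4a10 moving furthest up and Ubd furthest down.

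On the other side, Ubd showed the largest fall among genes of at least 5 RPKM in the higher group. It encodes a ubiquitin-like modifier induced by inflammatory cytokines, and was at 34.03, 32.8 and 32.6 RPKM with the empty vector and 1.14, 1.43 and 1.37 RPKM with overexpression. All 3 overexpression values were below 1.5 RPKM, a level 25.2-fold lower (log2 difference -3.88, SE 0.0683, adjusted p = 7.45e-13). Scd3, a stearoyl-CoA desaturase isoform, was at 23.7, 25.9 and 23.2 RPKM with the empty vector and 2.65, 2.47 and 2.54 RPKM with overexpression, or 9.50-fold lower. Its paralogs Scd1 and Scd2 fell by 2.20-fold and 1.17-fold, and reads shared between these similar genes may have been split by the counting. Poln, a DNA polymerase, read 9.67, 8.91 and 9.18 RPKM with the empty vector and 0.595, 0.622 and 0.591 RPKM with overexpression, but it shares exon positions with Haus3, which also fell (4.65 ± 0.303 to 2.41 ± 0.177 RPKM).

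The falls reached genes of very high level. Impdh1, which catalyses the committed step of guanine nucleotide synthesis, was at 182, 180.2 and 183 RPKM with the empty vector and 35.7, 36.1 and 36.5 RPKM with overexpression, 5.03-fold lower. Impdh2, the second isozyme, moved the other way to a small extent (13.2 ± 0.147 to 15.3 ± 0.649 RPKM, adjusted p = 0.00256). Ccdc80, a secreted matrix protein abundant in fat, was at 165, 166 and 179 RPKM with the empty vector and 34.5, 32.7 and 30.7 RPKM with overexpression. Cpm, a carboxypeptidase anchored to the membrane, was at 43.7, 44.8 and 44.99 RPKM with the empty vector and 7.72, 8.55 and 8.18 RPKM with overexpression. For both genes the controls exceeded the overexpression libraries 5.20-fold and 5.46-fold. Adipsin (Cfd) and the apolipoprotein gene Apod went from 1649 ± 60.9 to 294 ± 37.6 RPKM and from 107 ± 7.73 to 22.5 ± 2.07 RPKM. Tmem182 and Mettl27, of less settled function, went from 9.42 ± 0.316 to 1.92 ± 0.402 RPKM and from 8.32 ± 0.433 to 1.21 ± 0.153 RPKM.

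Because FOXP1 binds DNA, promoters of the strongly changed genes were searched for a core motif of forkhead proteins. The letters TGTTTAC were searched on both strands (GTAAACA on the other) from 250 bases before to 50 bases after each RefSeq start on GRCm38.p6. A match was present in 1095 of 27025 genes with a promoter entry (4.05%) and in 247 of 8362 tested genes (2.95%). It was present in 16 of the 188 strongly lowered genes with an entry (8.51%) and in 8 of the 216 strongly raised ones (3.70%). No test was run on these shares, a match is not a bound site, and near-identical copies and genes that share a promoter are counted separately. The 250 bases before the start follow for a pair of lowered genes, Tmem140 and Anxa8, and a pair of raised genes, Stard5 and Cyp2ab1, each 5′ to 3′ on the gene's strand with the match in capitals.
Tmem140: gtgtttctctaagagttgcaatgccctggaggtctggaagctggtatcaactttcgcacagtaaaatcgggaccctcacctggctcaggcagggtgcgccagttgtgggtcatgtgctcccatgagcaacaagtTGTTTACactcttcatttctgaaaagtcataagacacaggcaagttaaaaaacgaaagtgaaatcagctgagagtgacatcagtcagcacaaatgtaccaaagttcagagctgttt
Anxa8: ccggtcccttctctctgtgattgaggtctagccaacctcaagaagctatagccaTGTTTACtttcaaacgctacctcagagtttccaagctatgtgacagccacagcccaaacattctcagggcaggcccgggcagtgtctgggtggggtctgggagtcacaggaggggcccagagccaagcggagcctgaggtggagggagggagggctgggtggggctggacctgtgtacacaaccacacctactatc
Stard5: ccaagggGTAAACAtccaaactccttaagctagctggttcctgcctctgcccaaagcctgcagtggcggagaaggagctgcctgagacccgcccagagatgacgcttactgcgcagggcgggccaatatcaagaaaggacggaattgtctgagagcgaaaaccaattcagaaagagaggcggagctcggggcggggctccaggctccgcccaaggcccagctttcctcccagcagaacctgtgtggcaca
Cyp2ab1: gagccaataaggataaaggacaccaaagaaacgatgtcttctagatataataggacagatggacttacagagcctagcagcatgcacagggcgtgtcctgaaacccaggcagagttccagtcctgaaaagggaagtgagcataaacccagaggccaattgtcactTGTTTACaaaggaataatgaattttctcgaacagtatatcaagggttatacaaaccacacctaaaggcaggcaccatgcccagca
The Tmem140 stretch is chr6:34862896-34863145 (plus strand), and the capitals begin 116 bases before the start. Its second match begins 5 bases before the start and runs past the last printed base, so it is not in capitals. The Anxa8 stretch is chr14:34085729-34085978 (plus strand), with the match 196 bases before the start. The raised genes have theirs 243 bases before the start in Stard5 (chr7:83631767-83632016, plus strand) and 85 bases before it in Cyp2ab1 (chr16:20325405-20325654, minus strand). Tmem140, a membrane protein gene that shares exon positions with Cyren, was at 21.6, 22.9 and 23.02 RPKM with the empty vector and 4.80, 4.25 and 4.28 RPKM with overexpression. Anxa8, a calcium-dependent phospholipid-binding annexin, was at 109.8, 113 and 114 RPKM with the empty vector and 30.1, 28.6 and 30.7 RPKM with overexpression. Both fell without overlap, by 5.07-fold and 3.76-fold. Stard5, a sterol-binding transfer protein, went from 3.51 ± 0.0156 to 9.22 ± 0.741 RPKM, and Cyp2ab1, a cytochrome P450, went from 3.07 ± 0.246 to 7.75 ± 0.632 RPKM.

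Gene lists were read against the 31% and 20.3% of all tested genes that were called higher and lower, and against the median log2 ratio of means over all tested genes, 0.05. The list most uniformly lowered held sulfotransferases, glucuronosyltransferases, carboxylesterases and flavin monooxygenases, enzymes that conjugate, hydrolyse or oxidise drugs and lipids: 1 higher and 11 lower of 12 tested, 0 and 7 of them strongly, median log2 ratio -1.18. Ces1d, a carboxylesterase that also hydrolyses stored triglyceride, was at 119, 129 and 117 RPKM with the empty vector and 25.7, 22.3 and 21.4 RPKM with overexpression, and its neighbour Ces1f went from 25.8 ± 0.778 to 7.64 ± 0.355 RPKM. Fmo2, a flavin monooxygenase, went from 1.19 ± 0.0117 to 0.27 ± 0.0607 RPKM. Part of this count comes from glucuronosyltransferase genes that share exons at 1 locus, so that Ugt1a6b (6.08 ± 0.0961 to 2.21 ± 0.231 RPKM) is not separate from the others there. Ces2g went against the list, from 3.15 ± 0.0797 to 5.68 ± 0.418 RPKM.

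Glutathione transferases and peroxidases, which detoxify electrophiles and peroxides, went the same way: 3 higher and 15 lower of 21 tested, 0 and 6 of them strongly, median log2 ratio -0.41. Gpx1, the main cytosolic glutathione peroxidase, was at 242, 233 and 245 RPKM with the empty vector and 79.5, 74.1 and 66.9 RPKM with overexpression. The controls were 3.26-fold above the overexpression libraries. Gsta4, a transferase for lipid aldehydes, fell 3.69-fold from 31.4 ± 0.135 to 8.51 ± 0.573 RPKM, and Gsta3 and Mgst2 fell 4.35-fold and 3.72-fold. The exceptions were small: Gstt3 rose 1.59-fold, Gsto1 1.19-fold and Gpx7 1.17-fold. Catalase (Cat), the peroxisomal hydrogen peroxide enzyme, fell from 276 ± 5.80 to 124 ± 2.12 RPKM.

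Aldehyde, alcohol and carbonyl dehydrogenases and reductases showed 12 higher and 29 lower of 52 tested, 1 and 6 of them strongly, median log2 ratio -0.15. Adh1, a class I alcohol dehydrogenase that also oxidises retinol, was at 20.2, 20.7 and 21.5 RPKM with the empty vector and 3.87, 3.36 and 3.44 RPKM with overexpression, and its neighbour Adh7 went from 5.88 ± 0.074 to 2.07 ± 0.212 RPKM. Both genes overlap a transcript on their exons. The hydroxysteroid-type reductases Akr1c13 and Akr1c14 went from 1.77 ± 0.288 to 0.196 ± 0.0544 RPKM and from 3.47 ± 0.0458 to 1.36 ± 0.0704 RPKM, and are similar in sequence to other members of their cluster. Aldh3b3 was the 1 strong rise, from 1.16 ± 0.0809 to 3.59 ± 0.176 RPKM.

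The cytochrome P450 list was split: 4 higher and 10 lower of 21 tested, 3 and 6 of them strongly, median log2 ratio -0.17. Cyp2e1, which oxidises ethanol and ketone bodies, was at 27.3, 27.04 and 26.4 RPKM with the empty vector and 4.07, 4.59 and 4.14 RPKM with overexpression, 6.30-fold lower. Cyp2f2, of higher level, fell from 186 ± 5.19 to 52.1 ± 2.52 RPKM. Also lower were Cyp2c23, which makes epoxides of arachidonic acid, Cyp2c70 and Cyp2j9, by 5.18-fold, 3.60-fold and 6.15-fold. The 3 strong rises were Cyp4a10, Cyp4b1 and Cyp2ab1, so that the 2 fatty acid hydroxylases of the CYP4 family moved opposite to the 6 strong falls.

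**Figure D3:**
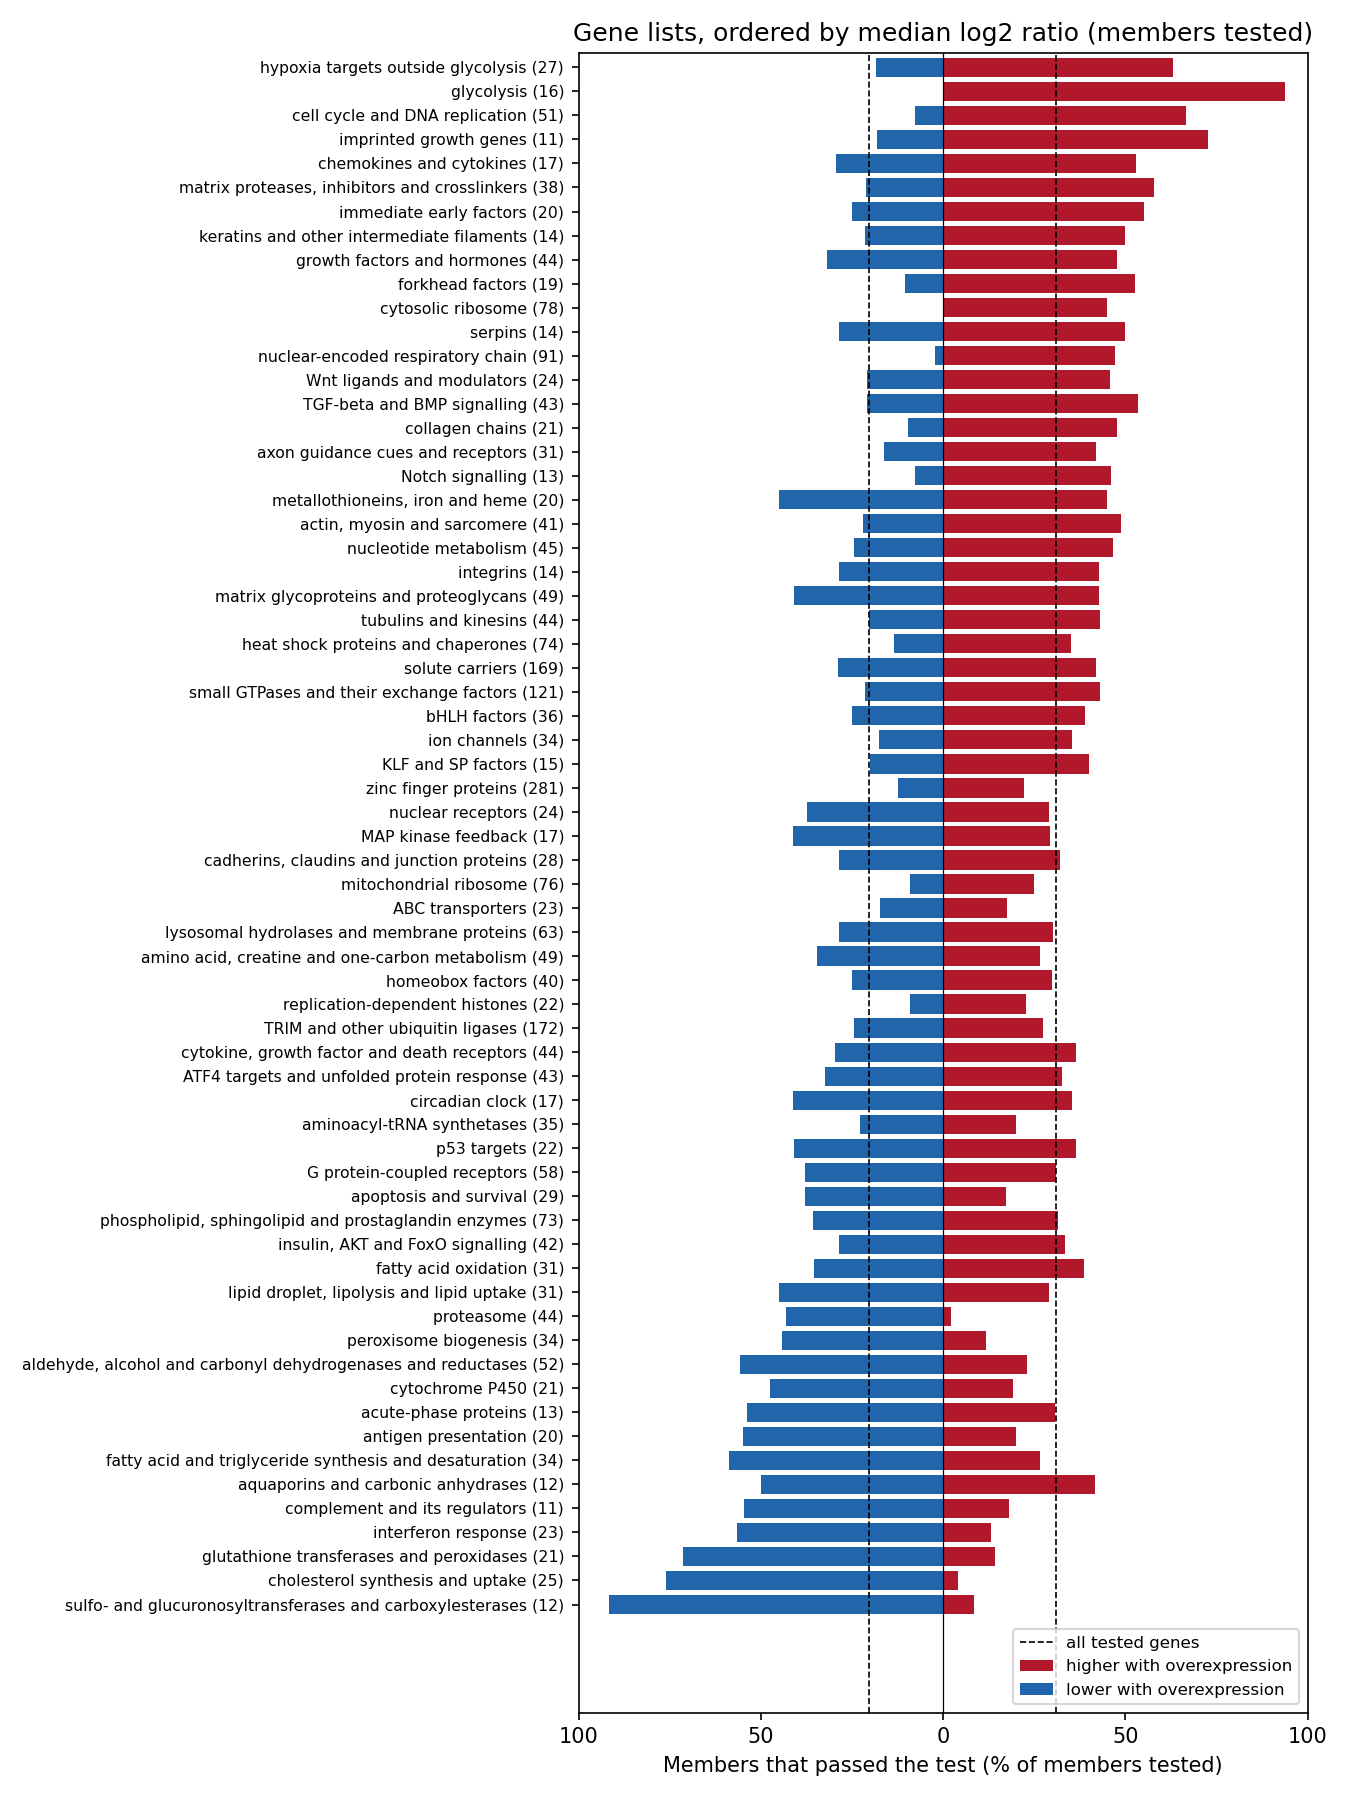
Percentage of tested members called higher (right) or lower (left) with overexpression for each gene list with at least 10 tested members, ordered by median log2 ratio of means, with the number of tested members in brackets; dashed lines mark 31% and 20.3%, the shares over all tested genes. Conjugating enzymes, cholesterol synthesis, glutathione enzymes and interferon genes lie at the lower end and hypoxia targets and glycolysis at the upper end.

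Enzymes that make fatty acids and triglyceride gave 9 higher and 20 lower of 34 tested, 2 and 3 of them strongly, median log2 ratio -0.23. Besides Elovl4, Acacb was the only other strong rise: this mitochondrial acetyl-CoA carboxylase, whose product restrains fatty acid entry into mitochondria, was at 3.47, 3.93 and 3.45 RPKM with the empty vector and 9.07, 10.3 and 7.71 RPKM with overexpression. Acsl5 and Elovl6 rose 1.66-fold and 1.81-fold. Acsm5, a medium-chain acyl-CoA synthetase whose exons overlap Pdilt, fell from 1.49 ± 0.0586 to 0.231 ± 0.00822 RPKM, and Acsl4, which prefers arachidonic acid, fell 1.89-fold. Gpat3 and Gpat4, the microsomal acyltransferases that start glycerolipid synthesis, went from 25.1 ± 0.423 to 12.4 ± 0.694 RPKM and from 44.9 ± 1.44 to 21.4 ± 0.881 RPKM.

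The wider list of phospholipid, sphingolipid and prostaglandin enzymes had 23 higher and 26 lower of 73 tested, 2 and 4 of them strongly, median log2 ratio -0.04. Sptlc3, a subunit of the enzyme that starts sphingolipid synthesis, was at 2.91, 3.35 and 2.82 RPKM with the empty vector and 0.514, 0.555 and 0.401 RPKM with overexpression. The sphingomyelin synthase Sgms2 went from 2.93 ± 0.0645 to 1.15 ± 0.0929 RPKM. Strong rises in that list were Pla2g2e, a secreted phospholipase, from 2.34 ± 0.209 to 7.07 ± 0.43 RPKM, and Ptgr1, a prostaglandin reductase, from 1.60 ± 0.143 to 4.26 ± 0.588 RPKM. Cholesterol synthesis and uptake showed 1 higher and 19 lower of 25 tested, 0 and 1 of them strongly, median log2 ratio -0.64. The strong fall was Cyp51, a sterol demethylase whose exons overlap Akap9, from 69.5 ± 1.85 to 26.5 ± 0.833 RPKM. Squalene epoxidase (Sqle) was the single rise, 1.31-fold, while Idi1, Mvd and Sc5d fell 1.86-fold, 1.88-fold and 1.93-fold.

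Fatty acid oxidation had no common direction, with 12 higher and 11 lower of 31 tested, 2 and 1 of them strongly, median log2 ratio -0.06, and under TPM scaling falls outnumbered rises, 13 to 11. Acaa2, the last enzyme of the mitochondrial spiral, was at 119.7, 120.0 and 117 RPKM with the empty vector and 286, 281 and 241 RPKM with overexpression. Pdk4, which blocks pyruvate oxidation, went from 21.7 ± 1.31 to 49.6 ± 3.92 RPKM. Among genes of peroxisomal oxidation, Acox2, which oxidises branched acyl-CoA, was at 9.76, 10.6 and 9.35 RPKM with the empty vector and 2.72, 3.13 and 2.98 RPKM with overexpression, and Abcd2, a peroxisomal carrier of very long acyl-CoA, went from 3.70 ± 0.171 to 1.23 ± 0.12 RPKM. Over the peroxisome list there were 4 higher and 15 lower of 34 tested, 0 and 3 of them strongly, median log2 ratio -0.15.

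Lipid droplet genes were likewise mixed (9 higher and 14 lower of 31 tested, 2 and 3 of them strongly, median log2 ratio -0.07). Cidea, a lipid droplet protein also used as a brown fat marker, was at 2.34, 3.78 and 2.85 RPKM with the empty vector and 12.3, 12.9 and 12.8 RPKM with overexpression. G0s2, the inhibitor of the triglyceride lipase Pnpla2, rose from 169 ± 10.1 to 353 ± 19.3 RPKM. Cidec, the droplet protein of white fat, fell 2.72-fold and Aqp7, the glycerol channel, 3.23-fold.

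Receptors on the cell surface changed in both directions. Of 58 tested G protein-coupled receptors 18 were higher and 22 lower, with 8 strong rises and 11 strong falls. Adrb3, the beta-3 adrenoceptor through which catecholamines drive fat breakdown, was at 4.17, 3.81 and 4.57 RPKM with the empty vector and 0.313, 0.274 and 0.233 RPKM with overexpression, 15.3-fold lower, with exon positions shared with Gm45470. Hcar2, the receptor for niacin and beta-hydroxybutyrate, which restrains lipolysis, was at 4.93, 4.53 and 4.87 RPKM with the empty vector and 0.815, 0.677 and 0.704 RPKM with overexpression. The lactate receptor Hcar1 beside it went from 4.59 ± 0.104 to 1.37 ± 0.0535 RPKM, and the succinate receptor Sucnr1 from 2.51 ± 0.0989 to 0.641 ± 0.0795 RPKM. Receptors with opposite known effects on lipolysis were lower together. Mc2r, the receptor for adrenocorticotropic hormone, was the most abundant of these, at 23.5, 23.2 and 22.6 RPKM with the empty vector and 4.77, 5.34 and 6.80 RPKM with overexpression.

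Receptors that rose included Ffar4, a receptor for long-chain fatty acids, at 1.45, 1.97 and 2.05 RPKM with the empty vector and 5.51, 5.65 and 7.64 RPKM with overexpression, and the nucleotide receptor P2ry2, which went from 0.526 ± 0.109 to 1.86 ± 0.124 RPKM. Among cytokine, growth factor and death receptors (16 higher and 13 lower of 44 tested, 7 and 2 of them strongly, median log2 ratio 0.01), quantile normalization gave 15 higher and 16 lower, so the balance of this list depended on scaling. The decoy-type TRAIL receptors Tnfrsf22 and Tnfrsf23 were at 2.82, 2.84 and 2.60 RPKM with the empty vector and 12.4, 12.2 and 13.5 RPKM with overexpression for the first and went from 4.13 ± 0.26 to 17.6 ± 2.42 RPKM for the second. Il13ra1, a chain shared by the interleukin 4 and 13 receptors, rose from 0.754 ± 0.116 to 3.11 ± 0.148 RPKM. Ifngr1, the ligand-binding chain of the interferon gamma receptor, was at 72.7, 73.8 and 69.9 RPKM with the empty vector and 35.6, 34.5 and 32.1 RPKM with overexpression, lower in all 3 overexpression libraries.

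Solute carriers had 71 higher and 49 lower of 169 tested, 6 and 7 of them strongly, median log2 ratio 0.08. Their strong shares, 3.55% higher and 4.14% lower, were close to the 3.07% and 2.48% of all tested genes. Besides Slc45a3, the strong rises included Slc5a7, the choline carrier of nerve endings, at 2.35, 2.19 and 2.27 RPKM with the empty vector and 10.7, 11.2 and 13.2 RPKM with overexpression. The zinc importer Slc39a4 went from 0.301 ± 0.0591 to 1.75 ± 0.42 RPKM. Falls included Slc22a20, an organic anion carrier, from 9.51 ± 0.254 to 1.90 ± 0.0885 RPKM, Slc13a4, a sulfate carrier, from 10.3 ± 0.414 to 2.77 ± 0.268 RPKM, and Slc43a1, an amino acid carrier, from 1.79 ± 0.106 to 0.501 ± 0.0494 RPKM. Among ion channels (12 higher and 6 lower of 34 tested, 4 and 1 of them strongly, median log2 ratio 0.07), Trpv2 rose from 1.60 ± 0.181 to 5.48 ± 0.139 RPKM and Kcnh2 from 0.159 ± 0.0207 to 1.14 ± 0.122 RPKM. Strong shares of the ion channels were 11.8% higher and 2.94% lower. Aquaporins and carbonic anhydrases numbered 12, of which 5 were strong rises and 2 strong falls, or 41.7% and 16.7%. Aqp1, the water channel, went from 3.05 ± 0.217 to 8.55 ± 0.659 RPKM, Car6, a secreted carbonic anhydrase, from 0.409 ± 0.0305 to 2.43 ± 0.17 RPKM, and Car3, the form abundant in fat and muscle, fell from 9.26 ± 1.02 to 3.08 ± 0.175 RPKM.

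Secreted plasma proteins of the acute phase, which are named for their change during inflammation, divided (4 higher and 7 lower of 13 tested, 3 and 3 of them strongly, median log2 ratio -0.17). Higher were Lcn2, Lbp, Saa3 and Orm3. Lbp, which binds bacterial lipopolysaccharide, was at 3.90, 3.81 and 3.93 RPKM with the empty vector and 18.3, 18.8 and 18.6 RPKM with overexpression, 4.79-fold above the controls. Saa3, serum amyloid A3, went from 0.517 ± 0.0878 to 2.32 ± 0.191 RPKM, and Orm3, an orosomucoid, from 81.3 ± 1.55 to 151 ± 6.20 RPKM. Lower were Itih4, of the inter-alpha-trypsin inhibitor heavy chain family, and the antiproteases Serpina3c and Serpina3n. Itih4 was at 29.3, 32.7 and 30.7 RPKM with the empty vector and 7.02, 8.36 and 7.69 RPKM with overexpression. Serpina3c and Serpina3n went from 11.6 ± 0.387 to 2.62 ± 0.228 RPKM and from 41.7 ± 1.59 to 13.2 ± 2.01 RPKM. Camp, the cathelicidin antimicrobial peptide, is outside that list and rose 4.37-fold to 10.8 RPKM.

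The list of chemokines and cytokines was also divided (9 higher and 5 lower of 17 tested, 3 and 3 of them strongly, median log2 ratio 0.28). Ccl6 was at 8.24, 8.26 and 8.66 RPKM with the empty vector and 1.31, 1.27 and 1.35 RPKM with overexpression, and Ccl9 next to it went from 4.99 ± 0.198 to 1.40 ± 0.064 RPKM. Ccl2 and Ccl7, another adjacent pair on chromosome 11, went from 1.48 ± 0.27 to 3.47 ± 0.51 RPKM and from 2.02 ± 0.234 to 4.45 ± 0.627 RPKM, and Ccl24, which attracts eosinophils, went from 0.679 ± 0.193 to 2.16 ± 0.178 RPKM. The macrophage list, summed over its 9 listed markers, stood at 5.53 to 7.62 RPKM with the empty vector and 4.65 to 5.28 RPKM with overexpression. Its part in the chemokine values was not tested.

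Hormones and growth factors gave 21 higher and 14 lower of 44 tested, 7 and 3 of them strongly, median log2 ratio 0.21. Angptl8, a liver and fat hormone that restrains lipoprotein lipase, was at 0.792, 1.29 and 1.02 RPKM with the empty vector and 8.30, 8.998 and 6.60 RPKM with overexpression. Angptl1 and Adm2 went from 1.08 ± 0.117 to 4.11 ± 0.154 RPKM and from 0.323 ± 0.0745 to 1.28 ± 0.0854 RPKM, and Fgf21, a fasting hormone, from 0.224 ± 0.0659 to 1.53 ± 0.135 RPKM. Among falls, Fgf2 went from 1.81 ± 0.14 to 0.389 ± 0.025 RPKM with exon positions shared with Nudt6, and the adipokine genes Retn and Adipoq fell 4.44-fold and 4.45-fold. Nampt, which makes the precursor of NAD and is also secreted, went from 142 ± 4.70 to 71.1 ± 0.734 RPKM.

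Interferon-response genes were lower as a list, with 3 higher and 13 lower of 23 tested, 0 and 6 of them strongly, median log2 ratio -0.41. After Ubd, the largest falls were in guanylate-binding and immunity-related GTPases, which attack intracellular pathogens. Gbp2 was at 11.2, 10.97 and 11.7 RPKM with the empty vector and 1.39, 1.10 and 1.35 RPKM with overexpression, lower by 8.81-fold. Igtp and Irgm2, which lie side by side and share exon positions, went from 4.04 ± 0.612 to 0.784 ± 0.162 RPKM and from 2.96 ± 0.12 to 0.699 ± 0.0904 RPKM. The rises were small, among them Ifi27 at 1.23-fold and Ifitm3 at 1.26-fold. Antigen presentation showed 4 higher and 11 lower of 20 tested, 0 and 0 of them strongly, median log2 ratio -0.22: the peptide-loading genes Tapbp and Tap2 fell 1.66-fold and 1.52-fold, whereas H2-D1, a class I heavy chain, rose 1.31-fold.

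Proteasome subunits were lower by smaller amounts, with 1 higher and 19 lower of 44 tested, 0 and 1 of them strongly, median log2 ratio -0.14, and 1 higher and 30 lower under median-ratio scaling. Over all genes tested, median-ratio scaling gave 3008 higher and 2726 lower. Psma1, an alpha-ring subunit of the core particle, was the strong fall, at 158, 164 and 151 RPKM with the empty vector and 77, 79.1 and 68.3 RPKM with overexpression. The immunoproteasome subunit Psmb10 went from 27.7 ± 0.323 to 14.1 ± 0.963 RPKM. Psmd10 was the only rise, 1.32-fold. Among ubiquitin ligases, Rnf125 went from 14.7 ± 0.654 to 4.13 ± 0.461 RPKM and Fbxo45 from 21.1 ± 0.0992 to 8.51 ± 0.763 RPKM.

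In the matrix, rises and falls were nearly equal in number for glycoproteins and proteoglycans (21 higher and 20 lower of 49 tested, 5 and 5 of them strongly, median log2 ratio 0.12), and small leucine-rich proteoglycans went in opposite directions. Dcn, decorin, was at 28.99, 25.3 and 28.7 RPKM with the empty vector and 8.18, 8.24 and 7.55 RPKM with overexpression. Lum, lumican, next to it on chromosome 10, went from 7.07 ± 0.0472 to 1.98 ± 0.352 RPKM. Fmod, fibromodulin, another collagen-binding member of that family, was at 0.741, 0.708 and 0.635 RPKM with the empty vector and 5.36, 6.01 and 6.70 RPKM with overexpression, 8.67-fold higher. Laminin chains Lama5 and Lamb3 rose from 0.594 ± 0.00339 to 2.79 ± 0.386 RPKM and from 2.57 ± 0.232 to 7.97 ± 1.34 RPKM. Sparcl1 and the hyaluronan synthase Has2 went from 46.5 ± 0.375 to 18.98 ± 0.53 RPKM and from 2.80 ± 0.042 to 0.94 ± 0.132 RPKM, the latter overlapping its antisense gene Has2os. Collagen chains had 10 higher and 2 lower of 21 tested, 0 and 0 of them strongly, median log2 ratio 0.14, with Col1a1 going from 175 ± 8.35 to 266 ± 2.04 RPKM. Matrix proteases, inhibitors and crosslinkers had 22 higher and 8 lower of 38 tested, 4 and 1 of them strongly, median log2 ratio 0.26. In that group Adamts15, which cleaves proteoglycans, rose 3.36-fold to 11.1 RPKM, Mmp15 rose 3.58-fold, and Tgm2, a crosslinking transglutaminase that overlaps Rprd1b, rose 2.82-fold, while Mmp11 fell 2.02-fold.

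Cell-surface and cytoskeletal genes included markers of other lineages. Msln, mesothelin, a surface protein of the mesothelium, was at 2.18, 1.94 and 1.75 RPKM with the empty vector and 28.9, 26.7 and 23.4 RPKM with overexpression. Of the 8 mesothelium or epithelium markers, Krt19 and Krt8 were also strongly higher at about 1 RPKM, while Cdh1 was at 0 in all 6 libraries, Epcam was at most 0.0118 RPKM and Upk3b at most 0.108 RPKM. Krt18 averaged 0.533 and 0.529 RPKM and did not pass the test (adjusted p = 0.985), and Lrrn4, a mesothelial marker under the filter, averaged 0.0748 RPKM with the empty vector and 0.0195 RPKM with overexpression. The summed list was 2.80 to 3.28 RPKM with the empty vector and 25.3 to 31.5 RPKM with overexpression, most of it Msln, and its part in the results was not tested. The 6 skeletal muscle markers present in the matrix, of 9 chosen, summed to 24.3 to 25.1 RPKM with the empty vector and 44.6 to 50.7 RPKM with overexpression, and their part in the results was not tested. Acta1, skeletal actin, was at 12.5, 13.7 and 12.98 RPKM with the empty vector and 36.2, 42.2 and 40.8 RPKM with overexpression, with Ckm at 0, Myog at most 0.0363 RPKM and Des falling from 11.6 ± 0.196 to 8.41 ± 0.534 RPKM. Other rises were Tagln2, an actin-bundling protein, from 27.6 ± 0.684 to 58.5 ± 6.86 RPKM, Tubb6, a beta-tubulin, from 7.89 ± 0.336 to 22.8 ± 0.835 RPKM, and Nectin1, an adhesion molecule, from 1.07 ± 0.0479 to 3.59 ± 0.456 RPKM. Over the actin, myosin and sarcomere list there were 20 higher and 9 lower of 41 tested, 4 and 0 of them strongly, median log2 ratio 0.12, and over tubulins and kinesins 19 higher and 9 lower of 44 tested, 5 and 0 of them strongly, median log2 ratio 0.10.

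In the listed families of transcription factors few members changed at least 2-fold. Homeobox factors had 12 higher and 10 lower of 40 tested, 0 and 0 of them strongly, median log2 ratio 0.03, and nuclear receptors 7 higher and 9 lower of 24 tested, 0 and 0 of them strongly, median log2 ratio 0.06. The balance was not stable: homeobox factors had 8 higher and 11 lower under TPM scaling, 9 higher and 10 lower with quantile normalization and 9 higher and 11 lower without overexpression replicate 3, where nuclear receptors had 9 higher and 8 lower. Forkhead factors gave 10 higher and 2 lower of 19 tested, 2 and 0 of them strongly, median log2 ratio 0.21, counting Foxp1 itself. Foxo1, the insulin-regulated forkhead factor, was at 10.95, 10.7 and 10.7 RPKM with the empty vector and 21.3, 22.3 and 23.1 RPKM with overexpression, with exon positions shared with Gm20402. Foxm1, a factor of dividing cells, and Foxs1 rose 1.88-fold and 1.60-fold. Ebf3 rose from 2.18 ± 0.0872 to 5.72 ± 0.265 RPKM while Ebf1, its paralog and a factor of fat cell identity, fell from 8.61 ± 0.201 to 5.42 ± 0.304 RPKM. Klf5 went from 1.89 ± 0.0707 to 4.20 ± 0.095 RPKM, and Zbtb7c, of the 281 zinc finger genes tested the only strong change, from 0.198 ± 0.0308 to 2.18 ± 0.114 RPKM.

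Signalling intermediates that were strongly changed included several switches of second messengers. Pde3b, the insulin-activated phosphodiesterase that lowers cyclic AMP in fat cells, was at 10.5, 11.6 and 10.4 RPKM with the empty vector and 3.52, 4.08 and 3.72 RPKM with overexpression. Pik3r1, a regulatory subunit of phosphoinositide 3-kinase, was at 26.3, 27.1 and 25.5 RPKM with the empty vector and 54.1, 54.6 and 50.2 RPKM with overexpression. The regulators of G-protein signalling went apart, with Rgs2 falling 2.82-fold to 28.2 RPKM and Rgs12 rising 2.56-fold to 2.34 RPKM. Pck1, the gluconeogenic and glyceroneogenic carboxykinase, was at 1.999, 2.11 and 1.88 RPKM with the empty vector and 10.2, 11.01 and 9.22 RPKM with overexpression. Immediate early factors showed 11 higher and 5 lower of 20 tested, 2 and 1 of them strongly, median log2 ratio 0.25: Fos went from 0.953 ± 0.105 to 3.65 ± 0.18 RPKM and Egr2 from 0.531 ± 0.0318 to 1.64 ± 0.264 RPKM, while Btg2 fell from 15.2 ± 0.365 to 7.06 ± 0.194 RPKM. In the Wnt list (11 higher and 5 lower of 24 tested, 3 and 1 of them strongly, median log2 ratio 0.16), the receptors Fzd4 and Fzd8 rose 2.04-fold and 2.06-fold and the effector Lef1 fell 2.25-fold.

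Metal-handling genes were strongly changed at low and high levels (9 higher and 9 lower of 20 tested, 3 and 1 of them strongly, median log2 ratio 0.13). Mt2, metallothionein 2, which binds zinc and copper, was at 576, 601 and 571 RPKM with the empty vector and 1248, 1293 and 1295 RPKM with overexpression. Mt1 rose 1.37-fold from 564 ± 9.62 to 769.8 ± 6.03 RPKM. The metalloreductases Steap2 and Steap1, adjacent on chromosome 5, went from 2.55 ± 0.091 to 6.25 ± 0.109 RPKM and from 3.33 ± 0.245 to 6.82 ± 0.465 RPKM. The ferritin heavy chain Fth1 fell 1.56-fold, and Heph, a ferroxidase, 2.39-fold.

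Shifts of large protein complexes were small. Of 91 nuclear-encoded respiratory chain genes 43 were higher and 2 lower, with a median log2 ratio of 0.16 against 0.05 over all tested genes. Of its 4 strong rises, 3 were isoforms of cytochrome c oxidase subunits that are known from muscle and brown fat. Cox8b was at 45.98, 51.9 and 47.3 RPKM with the empty vector and 239, 204 and 214 RPKM with overexpression. Cox7a1 went from 19.6 ± 2.12 to 46.1 ± 1.37 RPKM and Cox6a2 from 14.9 ± 1.001 to 30.9 ± 1.33 RPKM. The cytosolic ribosome gave 35 higher and 0 lower of 78 tested, 0 and 0 of them strongly, median log2 ratio 0.20. The mitochondrial ribosome had 19 higher and 7 lower of 76 tested, 0 and 0 of them strongly, median log2 ratio 0.05, but 8 higher and 10 lower under TPM scaling and 31 higher and 8 lower without overexpression replicate 3. Under TPM scaling the respiratory list had 33 higher and 2 lower and the cytosolic ribosome 19 higher and 0 lower. Without overexpression replicate 3 the cytosolic ribosome had 54 higher and 0 lower. Overexpression replicate 3 had the largest mitochondrial share of reads. Scaled to reads outside the mitochondrial genome, the respiratory list had 53 higher and 1 lower, and without that replicate 61 higher and 1 lower. Over all genes tested, that scaling gave 4133 higher and 2099 lower, and leaving out replicate 3 gave 4020 and 2201. TPM scaling gave 2419 and 2565 over all genes. The balance over all tested genes thus moved with the setting too.

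Cell cycle and replication genes were higher in 34 of 51 cases and lower in 4, at low levels: Birc5, survivin, went from 0.584 ± 0.0994 to 1.33 ± 0.152 RPKM and the cyclin gene Ccna2 from 0.64 ± 0.0477 to 1.39 ± 0.065 RPKM. The cell cycle inhibitor gene Cdkn2a fell from 158 ± 6.01 to 101 ± 8.87 RPKM, and the inhibitor Cdkn1a rose from 109 ± 4.14 to 165 ± 21.6 RPKM. Hypoxia targets outside glycolysis gave 17 higher and 5 lower of 27 tested, 6 and 2 of them strongly, median log2 ratio 0.77, with Egln3, an oxygen-sensing prolyl hydroxylase, at 20.7, 22.5 and 19.7 RPKM with the empty vector and 47.6, 52.2 and 55.2 RPKM with overexpression. Against that direction, Pfkfb3, a kinase-phosphatase that sets fructose bisphosphate levels, fell from 17.7 ± 0.513 to 7.82 ± 0.555 RPKM. Glycolysis itself had 15 higher and 0 lower of 16 tested, 3 and 0 of them strongly, median log2 ratio 0.76. The imprinted growth genes had 8 higher and 2 lower of 11 tested, 3 and 1 of them strongly, median log2 ratio 0.34. Peg10, a retrotransposon-derived gene, rose from 13.2 ± 1.11 to 49.5 ± 3.45 RPKM and the noncoding H19 from 0.149 ± 0.0101 to 1.89 ± 0.566 RPKM, while the strong fall was the noncoding Airn, which lies antisense to Igf2r, from 0.977 ± 0.209 to 0.42 ± 0.0371 RPKM, and Igf2r, the receptor that clears insulin-like growth factor, fell from 24.01 ± 0.756 to 17.3 ± 1.91 RPKM. Strand use in the counting is not given, so reads of Airn and Igf2r may not be separable.

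Some adjacent genes shared a direction. Counting tested genes next to each other along a chromosome, 32 runs (69 genes) were strongly higher throughout and 29 runs (62 genes) strongly lower throughout, and the longest held 4 genes. The runs included Cyp4a10 with Cyp4b1, Tnfrsf22 with Tnfrsf23, Dcn with Lum, Hcar2 with Hcar1, Adh7 with Adh1, Ces1d with Ces1f, and Arxes2 with Arxes1. Many are families of similar sequence, in which multi-mapped reads could tie neighbours together, which was not tested. Some runs hold genes that share exon positions, such as Has2 with Has2os and Igtp with Irgm2. How many runs unlinked neighbours would give was not tested either. Pairs of unrelated sequence also occurred, such as Tgm2 with Lbp and Elovl4 with Ttk.

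Noncoding classes leaned in different directions. Over all tested genes 31% were higher and 20.3% lower, and 3.07% and 2.48% were strongly so. Of 148 tested long intergenic RNAs 31 were higher and 50 lower, and of 162 antisense transcripts 21 were higher and 48 lower. Processed pseudogenes, copies of spliced transcripts, leaned up: of 423 tested, 164 were higher and 17 lower, with 39 strongly higher and 6 strongly lower. Whether reads of parent genes were assigned to these copies was not tested. How the counts of these classes depend on the scaling was not tested either. For Gm29216, a mitochondrial-like sequence on chromosome 1 that passed the test, the values were 155, 89.3 and 108 RPKM with the empty vector and 212, 219 and 1014 RPKM with overexpression. The overexpression mean rests on replicate 3, the library with the largest mitochondrial share.

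The knockdown libraries, which share no control with the overexpression libraries, offer a second set of values for the same genes. In them 2100 tested genes (18.7%) were higher and 3487 (31%) lower with the Foxp1 hairpin than with the scrambled hairpin. Of the 345 strong rises, 147 (42.6%) were lower in knockdown and 43 (12.5%) higher. These 147 are 4.22% of the genes lower in knockdown. Of the 279 strong falls, 125 (44.8%) were higher in knockdown, which is 5.95% of the genes higher there, and 62 (22.2%) were lower. The remaining 155 rises and 92 falls were not called in knockdown.

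Genes with opposite movements in the 2 experiments included large ones. Foxp1 itself was at 2.18 ± 0.0624 RPKM with the scrambled hairpin and 1.11 ± 0.0335 RPKM with the Foxp1 hairpin. Ubd was at 5.01 ± 0.55 RPKM with the scrambled hairpin and 31.8 ± 1.68 RPKM with the Foxp1 hairpin, 6.35-fold higher in knockdown. Apod was 4.27-fold higher and Retnla 3.39-fold higher in knockdown. Acsm5 and Sptlc3, both very low with overexpression, were 4.71-fold and 4.32-fold higher. In the raised set, Ffar4 was at 10.7 ± 0.641 RPKM with the scrambled hairpin and 3.99 ± 0.239 RPKM with the Foxp1 hairpin, Cidea at 5.77 ± 0.487 RPKM with the scrambled hairpin and 1.30 ± 0.152 RPKM with the Foxp1 hairpin, and Slc45a3 and Lcn2 at knockdown ratios of 0.628 and 0.644. Elovl4 had a knockdown ratio of 0.515 from a low level.

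Other genes moved the same way, or passed the test with overexpression alone. Cyp4b1 was 2.97-fold higher in knockdown as well, and Ccl2 6.78-fold higher. Anxa8 and Ccl6 were lower in both, with knockdown ratios of 0.666 and 0.617. Cyp4a10 (0.0208 ± 0.0191 RPKM with the scrambled hairpin and 0.021 ± 0.00728 RPKM with the Foxp1 hairpin) and Adrb3 (0.49 ± 0.0811 RPKM with the scrambled hairpin and 0.504 ± 0.0619 RPKM with the Foxp1 hairpin) did not pass the test in knockdown, with limma adjusted p = 0.996 and 0.868. Control levels were unlike: Adrb3 and Ubd were lower with the scrambled hairpin than with the empty vector, and Ffar4 was higher. At its level with the scrambled hairpin, Cyp4a10 had almost no room to fall. For Cyp4a10, not being called in knockdown is therefore not shown to be a lack of response. Why other genes were not called in knockdown was not tested. The differences between the experiments were not tested.

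**Figure D4:**
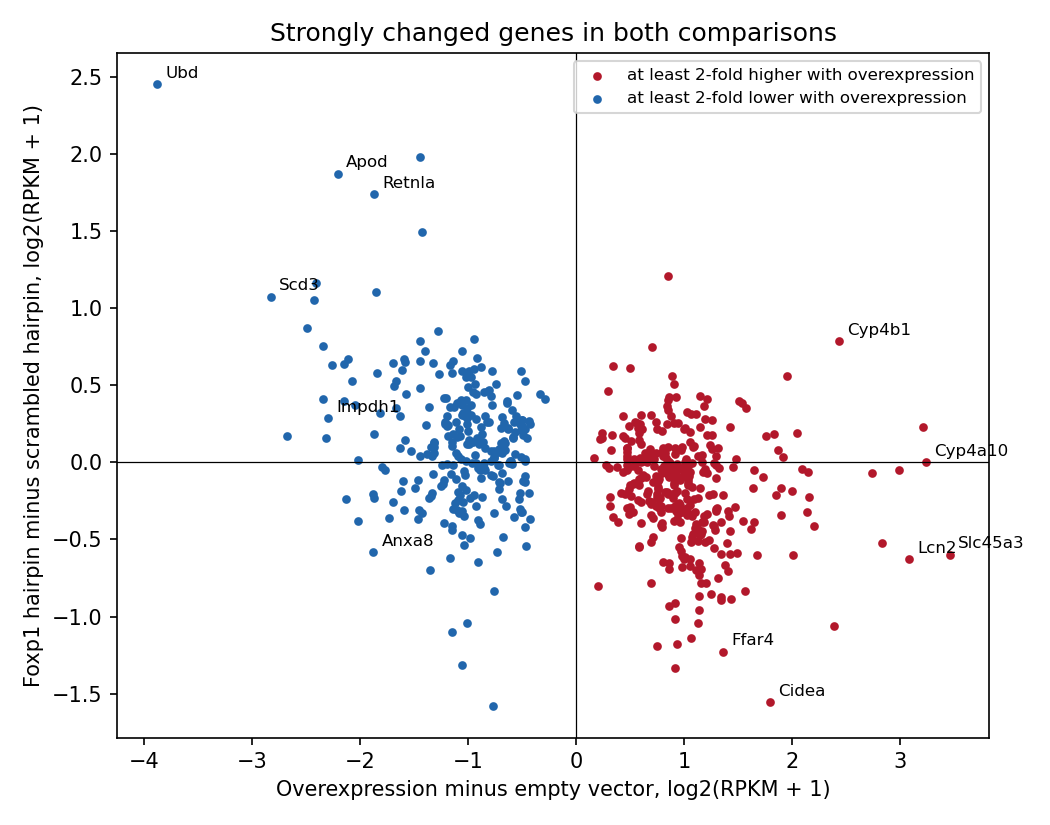
Difference with overexpression (x axis, overexpression minus empty vector) against the difference in knockdown (y axis, Foxp1 hairpin minus scrambled hairpin), both on the log2(RPKM + 1) scale, for the 345 strongly raised (right) and 279 strongly lowered (left) genes. The x position follows from how the genes were chosen; on the y axis 147 of the raised genes were called lower and 125 of the lowered genes called higher, with Ubd at the upper left.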

How the data were processed

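RNA-seq of 12 libraries (3 per group) was used. Per the submitters' processing notes, reads were aligned with HISAT2 2.1.0 to mm10 and counted with featureCounts of Subread 1.5.3; strand use and multi-mapping settings are not given in the sources used here. The authors deposited RPKM divided by 1000, and values were multiplied by 1000; 98.8% to 98.9% of values per library came out as whole reads (within 0.05), with 35252019 to 38450003 reads per library. Names and positions came from GENCODE M21, matched for 28896 of 28948 identifiers. Genes with at least 1 RPKM in 3 libraries were tested with limma 3.58.1 (R 4.3.3) on log2(RPKM + 1), in 1 model of 4 groups with a variance trend and Benjamini-Hochberg adjustment over 11245 genes. Fitted log2 differences on this scale understate changes of low genes; folds are ratios of mean RPKM.

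The rule for named genes was: Foxp1; the 20 largest ratios each way among called, non-overlapping genes of at least 5 RPKM in the higher group; the 10 largest RPKM differences each way; up to 4 called members per direction of each of 75 lists; and up to 10 genes each way passing between under 0.5 and at least 1 RPKM. Genes named as neighbours, paralogs or markers, as the edges of the 2-fold rule, or for their knockdown or promoter values (Airn, Anxa8, Stard5, Retnla, Camp, Cyp2f2, Mt1, Krt8) were added after values were seen. Members and lists were chosen with earlier results of these data known. Alternatives covered 4 scalings (TPM, median-ratio, quantile and reads outside the mitochondrial genome), the 6 compared libraries alone, the filter, pseudocounts, variance models, voom on recovered reads, a replicate block and leaving out each library.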

Additional observations from a re-analysis of the deposited data

How the results depend on the processing

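The 4 counts of changed genes kept within 1.5 times their value in every alternative run except the filters. Quantile normalization, voom, pseudocounts, variance models, the replicate block and the 6 libraries alone left the RPKM behind the fold and overlap rules unchanged. In those runs the strong counts could move only through the test, so their closeness to 345 and 279 was largely fixed in advance. With at least 5 RPKM in 3 libraries, 156 genes were strongly higher and 144 strongly lower, from 7181 genes tested. With no filter these were 986 and 1029, from 28948 genes. Leaving out 1 library gave 2921 to 4020 genes higher and 2018 to 2261 lower, and kept 583 to 598 of the 624 strongly changed genes. The 4020 higher came without overexpression replicate 3, with 2201 lower and 586 strong changes kept. No alternative reversed a strongly changed gene. Genes chosen as 2-fold apart without overlap could hardly reverse, so this too was largely fixed in advance. Any pairing of the libraries by replicate number was weak. Deviations from the group mean correlated at -0.0132, 0.1176 and 0.0806 between same-numbered libraries, and at -0.1406 to 0.0717 between differently numbered ones. With a replicate block, 3531 genes were higher and 2357 lower. With the 6 compared libraries alone in the model, 3095 genes were higher and 2090 lower. Quantile normalization gave 2916 higher and 2793 lower, and voom on recovered reads 3553 and 2313. Depth limits values under about 0.1 RPKM, which rest on few reads.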

Other observations

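Small heat shock proteins changed in both directions. In the list of heat shock proteins and chaperones there were 26 higher and 10 lower of 74 tested, 3 and 3 of them strongly, median log2 ratio 0.10. Under TPM scaling the list had 13 higher and 11 lower, and without overexpression replicate 3 35 higher and 11 lower. Over all genes tested, these settings gave 2419 higher and 2565 lower, and 4020 higher and 2201 lower. Cryab, alpha-B crystallin, a small heat shock protein, rose from 157 ± 12.3 to 279 ± 54.6 RPKM. Hspb6 and Hspb1, of the same small heat shock protein family as Hspb7, fell from 56.3 ± 2.88 to 26.3 ± 5.75 RPKM and from 5.67 ± 0.302 to 2.38 ± 0.217 RPKM. Exons of Cryab share positions with Hspb2, and those of Hspb6 with Gm38670, Lin37 and Proser3. Hspa12b, a distant relative of the large heat shock proteins, rose from 2.24 ± 0.0985 to 6.35 ± 0.408 RPKM.

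Nucleotide metabolism beyond Impdh1 gave 21 higher and 11 lower of 45 tested, 3 and 2 of them strongly, median log2 ratio 0.12. Prps1, which makes the ribose donor of nucleotide synthesis, fell from 33.8 ± 0.836 to 18.4 ± 0.923 RPKM, and Ctps2, a cytidine nucleotide synthase, fell from 39.7 ± 0.761 to 26.6 ± 1.28 RPKM. Ampd3, an AMP deaminase, rose from 3.22 ± 0.0584 to 6.65 ± 0.51 RPKM, and Rrm2, the small subunit of ribonucleotide reductase, rose from 1.89 ± 0.128 to 3.24 ± 0.24 RPKM. Guidance genes gave 13 higher and 5 lower of 31 tested, 2 and 1 of them strongly, median log2 ratio 0.14, with Sema3b rising from 0.959 ± 0.0403 to 2.54 ± 0.306 RPKM and Sema6d falling from 6.20 ± 0.135 to 2.92 ± 0.185 RPKM. The clock list had 6 higher and 7 lower of 17 tested, none of them strongly, and 7 higher and 6 lower without overexpression replicate 3. The repressor gene Bhlhe40 rose from 15.96 ± 0.651 to 27.3 ± 2.36 RPKM.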
